A study of Mus musculus with 12 samples.

Results

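Dendritic-like cells were the brain cells of treated mice that held transcripts of several genes of the dendritic lineage. A cell entered the group if it carried at least 1 unique molecular identifier (UMI, 1 counted transcript) of at least 3 of the 7 genes Flt3, Zbtb46, Cd209a, Xcr1, Ccr7, Clec9a and Itgax. Of 27439 cells kept in the 8 libraries of treated brains, 153 met this rule, against 30775 cells kept in all 12 libraries of the series. The members were thus chosen from measured transcripts, and the levels of these 7 genes are given below as a description.

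Single-cell RNA was counted in GFP+ and GFP- cells of 4 treated C57BL/6J mice, with 1 male and 1 female per route and each sort of each mouse in its own library. The mice had been conditioned with busulfan and dosed i.v. or i.c.v. with hematopoietic stem and progenitor cells of male donors carrying a lentiviral GFP vector. All of them, whatever the route, later received i.v. total marrow without the vector, and brains were taken 12 to 13 months after dosing, although the age on the labels is 22 to 28 weeks. Cells were gated as CD45+ CD11b+ CX3CR1+, so that GFP+ cells were microglia-like cells (MLCs) of donor origin and GFP- cells were taken as endogenous microglia, although vector-free donor cells would also be GFP-. Sorted neurons, astrocytes and microglia, and blood cells, of 1 treatment-naive C57BL/6J mouse labelled as 8 to 12 weeks old gave 4 further libraries. The treated libraries held from 4970758 to 16514669 UMIs in kept cells, and with 1 mouse of each sex per route, mouse and sex cannot be told apart.

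Conventional dendritic cells arise from marrow precursors that depend on the receptor Flt3, and they carry antigen to T cells on MHC class II molecules. Type 1 cells rely on the factors Irf8 and Batf3 and cross-present antigen, type 2 cells rely on Irf4 and usually bear CD11b, and both can mature into migratory cells that follow Ccr7 towards lymph nodes. In the healthy brain they are found mainly in the meninges and choroid plexus rather than among the microglia of the parenchyma.

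The dendritic-like cells were found mostly in the GFP+ libraries of the i.v. mice, and none were found in the GFP+ libraries of the i.c.v. mice. In the GFP+ libraries after i.v. dosing, 71 of 3344 cells of the female (2.12%) and 63 of 2266 cells of the male (2.78%) belonged to the group. In the GFP- libraries of the same mice the counts were 9 of 2675 cells (0.336%) and 2 of 4555 cells (0.0439%). After i.c.v. dosing, 0 of 2621 and 0 of 3536 GFP+ cells met the rule, which allows shares of up to 0.114% and 0.0848% in the female and the male by a floor of 3 counts. The two-sided exact 95% interval, given for the other libraries, reaches 0.141% and 0.104% there. Their GFP- libraries held 3 of 4355 cells (0.0689%) and 5 of 4087 cells (0.122%). Every i.v. GFP+ library therefore lay above every other treated library, and the exact 95% intervals of the female (1.66 to 2.67%) and the male (2.14 to 3.54%) overlapped each other but no other treated library.

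Tests over libraries could not separate these shares. The mean share was 1.23% ± 1.44 (SD, n = 4 libraries) in GFP+ and 0.143% ± 0.133 (SD, n = 4) in GFP- libraries, and the difference of 1.08 percentage points gave p = 0.429 in a two-sided exact permutation test whose smallest possible value is 0.0286. Among GFP+ libraries the i.v. mean was 2.45% ± 0.465 (SD, n = 2) and the i.c.v. mean 0, with an exact permutation p of 0.333, the smallest that 2 against 2 libraries allow. Among GFP- libraries the i.v. share exceeded the i.c.v. share by 0.0946 points, and the sign turned (-0.0517 points) without the i.v. female.

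**Figure D1:**
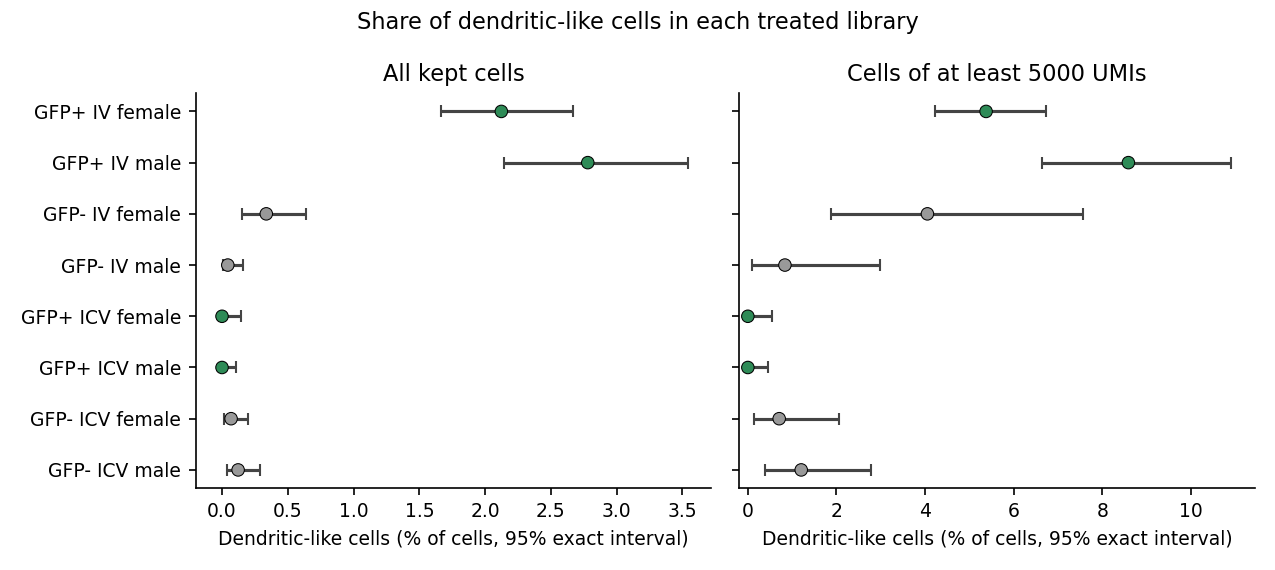
Share of dendritic-like cells (% of cells, x axis) in each treated library (y axis), among all kept cells on the left and among cells of at least 5000 UMIs on the right. Points are shares, green for GFP+ and grey for GFP-, and bars are exact 95% intervals of counting error. The i.v. GFP+ libraries stand at 2.12% and 2.78% on the left and at 5.38% and 8.59% on the right.

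The members were deep cells. Their median ran from 13894 to 18246 UMIs per cell over libraries, against 842 to 3346 in the other cells. A rule that asks for UMIs of 3 genes picks deeper cells by its form, so this depth is no separate result. In the i.v. GFP+ female the median was 2868, 6925, 12319 and 13756 UMIs in cells with 0, 1, 2 and 3 rule genes. Among cells of at least 5000 UMIs, members made up 5.38% and 8.59% of the i.v. GFP+ cells of the female and the male. The same share was 4.05% and 0.837% in the i.v. GFP- libraries and 0.708% and 1.20% in the i.c.v. GFP- libraries. It was 0 in both i.c.v. GFP+ libraries, which allows up to 0.452% and 0.365% by the floor of 3 counts, while the exact intervals reach 0.554% and 0.448%. At this depth the interval of the i.v. GFP+ female (4.22 to 6.74%) overlapped that of the GFP- cells of the same mouse (1.87 to 7.56%). In treatment-naive blood 7 of 341 cells (2.05%) met the rule, in naive microglia 1 of 1274, and in naive neurons and astrocytes 0 of 575 and 0 of 1146.

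The genes of the rule were unevenly carried. Of the 153 cells, 136 held Cd209a, the DC-SIGN homologue of monocyte-derived and type 2 cells, and 132 held Itgax, which encodes CD11c. Flt3 was held by 102 cells, the dendritic lineage factor Zbtb46 by 91, the homing receptor Ccr7 by 54, the type 1 receptor Clec9a by 22 and the type 1 chemokine receptor Xcr1 by 5. Cd209a also appeared in 6.73% and 9.55% of the other cells of at least 5000 UMIs in the i.v. GFP+ libraries, against 88.7% and 87.3% of the members there.

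The threshold of 3 genes did not fall at a gap. Over all treated libraries 144 cells had exactly 2 of the genes, 88 exactly 3, 48 exactly 4 and 17 more. In the i.v. GFP+ female the 67 cells with 2 genes held H2-Eb1, an MHC class II beta chain, at 11895 CPM, the UMI count scaled to a common library total, and the 46 cells with 3 genes at 14310 CPM. In the male these levels were 12275 CPM in 49 cells and 12796 CPM in 31 cells. The microglial receptor P2ry12 was at 26.7 and 14.8 CPM in the cells with 2 genes, against 400 and 366 CPM in the cells with none. In the cells with 3 and 4 genes it was at 1.56 and 28.3 CPM in the female and at 8.79 and 4.70 CPM in the male. Cells just under the threshold count among the other cells below. In H2-Eb1 and P2ry12 they were thus nearer to the members than to the cells with none of the genes.

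Genes outside the rule were compared between members and other cells of the same library in the 2 libraries with at least 10 members, the GFP+ cells of the i.v. female and male. The 6 other treated libraries held too few or no members. Of 10748 genes tested, 1945 were higher in the dendritic-like cells (18.1%) and 2027 lower (18.9%), so that 37% of all genes were called at an adjusted p under 0.05. The fold changes below are on the TMM scale of edgeR, with its standard error (SE), which places them 0.29 (female) and 0.48 (male) log2 units above the ratio of CPM. The median of all genes was -0.12 on this scale. With library totals alone, an alternative chosen after seeing the data, 961 genes were higher and 2467 lower and the median was -0.50, while DESeq2 called 1036 higher and 685 lower. The adjusted p-values rest on 1 residual degree of freedom per gene and on a spread shared over genes: for H2-Eb1 the value was 1.3e-20, and 1.6e-05 with library totals alone.

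Genes common to conventional dendritic cells were mostly higher. Of 16 genes of a list shared by both types, 15 were higher and 0 lower, with a median log2 fold change of 3.39, beside 18.1% of all genes called higher. The other cells were also matched to the members in depth, as far as the libraries allowed, at medians of 12970 against 14746 UMIs in the female and 12333 against 18246 UMIs in the male. With these matched cells 13 of 15 were higher, beside 12.4% of all genes higher and 25.2% called in either direction, and DESeq2 called 13 of 16. Napsa, an aspartic protease of the endosomal pathway, stood at 787 CPM in the members and 69.7 CPM in the other cells of the female, and at 680 and 54.7 CPM in the male (3.95 ± 0.23 SE). P2ry10, a receptor for lysophospholipids, stood at 72.3 against 3.24 CPM and at 133 against 4.57 CPM (5.05 ± 0.26). Members exceeded the other cells in both mice for each of these genes.

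The remaining called genes of this list covered surface molecules, enzymes and a transcription factor. Btla, an inhibitory receptor, differed by 4.84, Kit, the stem cell factor receptor, by 4.31, and Dpp4, the peptidase CD26, by 3.83 on the log2 scale. Kmo and Haao, enzymes of tryptophan breakdown through kynurenine, differed by 4.22 and 2.87. Bcl11a, a lymphoid and dendritic transcription factor, differed by 3.76, from 44.5 against 3.37 CPM in the female and 24.3 against 3.08 CPM in the male. Ap1s3 (3.62), H2-Eb2 (3.15), Spint2 (2.75), Gpr132 (2.60), Hmgn3 (2.01) and Slamf7 (1.94) were also higher, as was Traf1, an adaptor of TNF receptors, at 206 against 29.9 CPM and 372 against 58.9 CPM. Adam19 alone was not called, at 9.27 against 19.8 CPM in the female and 10.8 against 24.3 CPM in the male.

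The machinery of MHC class II presentation was higher with 1 exception. Of 11 genes, 10 were higher and 1 lower, with a median of 2.03, beside 18.1% of all genes higher. The median was 1.35 with other cells matched in depth and 3.73 in all 6 libraries with a member. H2-Eb1 stood at 13291 CPM in the members and 4485 CPM in the other cells of the female, and at 12526 and 3764 CPM in the male (2.03 ± 0.21 SE). Cd74, the invariant chain that escorts class II molecules, stood at 29486 against 10063 CPM and at 33263 against 10000 CPM (2.03 ± 0.21), so that about 3 of every 100 UMIs of a member came from this gene. H2-Aa (2.04) and H2-Ab1 (2.09) moved by a like amount. The peptide editors H2-DMa, H2-DMb1 and H2-DMb2 differed by 1.33, 1.73 and 3.62, and their inhibitors H2-Oa and H2-Ob by 3.82 and 2.80. Ciita, the coactivator that switches class II genes on, was at 147 against 38.9 CPM and at 92.7 against 41.1 CPM (1.94 ± 0.22). Ctss, the protease that trims the invariant chain and is abundant in microglia, was the exception and fell by 1.14 on the log2 scale, from 4741 to 1570 CPM in the female and from 3935 to 1449 CPM in the male.

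Class II promoters are known for an inverted CCAAT element, the Y box, to which NF-Y binds. The promoters of the class II list that hold this element as CTGATTGG are printed because their genes were higher together. The search covered 250 bases before each start on both strands, with no other motif searched. The RefSeq table holds 9 promoters for 8 genes of the list. The letters were found in 3 of these 9 promoters (33.3%), of H2-Aa, H2-Eb1 and H2-Oa, and in 1258 of all 32851 promoters (3.83%). Cd74, Ciita and H2-Ab1 were not matched. Each line gives the 150 bases before the start on the strand of the gene (GRCm38.p6), 5′ to 3′, with the motif in capitals. H2-Aa lies at chr17:34287824-34287973 on the minus strand, H2-Eb1 at chr17:34305717-34305866 and H2-Oa at chr17:34092229-34092378, both on the plus strand.
H2-Aa: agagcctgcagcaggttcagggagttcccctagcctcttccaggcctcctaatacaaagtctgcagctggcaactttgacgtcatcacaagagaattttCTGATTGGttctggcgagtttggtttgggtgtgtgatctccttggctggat
H2-Eb1: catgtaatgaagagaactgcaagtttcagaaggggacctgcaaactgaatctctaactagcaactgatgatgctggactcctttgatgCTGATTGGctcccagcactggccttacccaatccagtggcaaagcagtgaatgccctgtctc
H2-Oa: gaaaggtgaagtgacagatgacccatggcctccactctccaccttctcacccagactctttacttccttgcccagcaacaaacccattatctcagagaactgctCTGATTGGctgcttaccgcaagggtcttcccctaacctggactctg
In these windows the motif began 51, 62 and 46 bases before the start of H2-Aa, H2-Eb1 and H2-Oa. A match is a description of letters and not a measurement of binding.

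**Figure D2:**
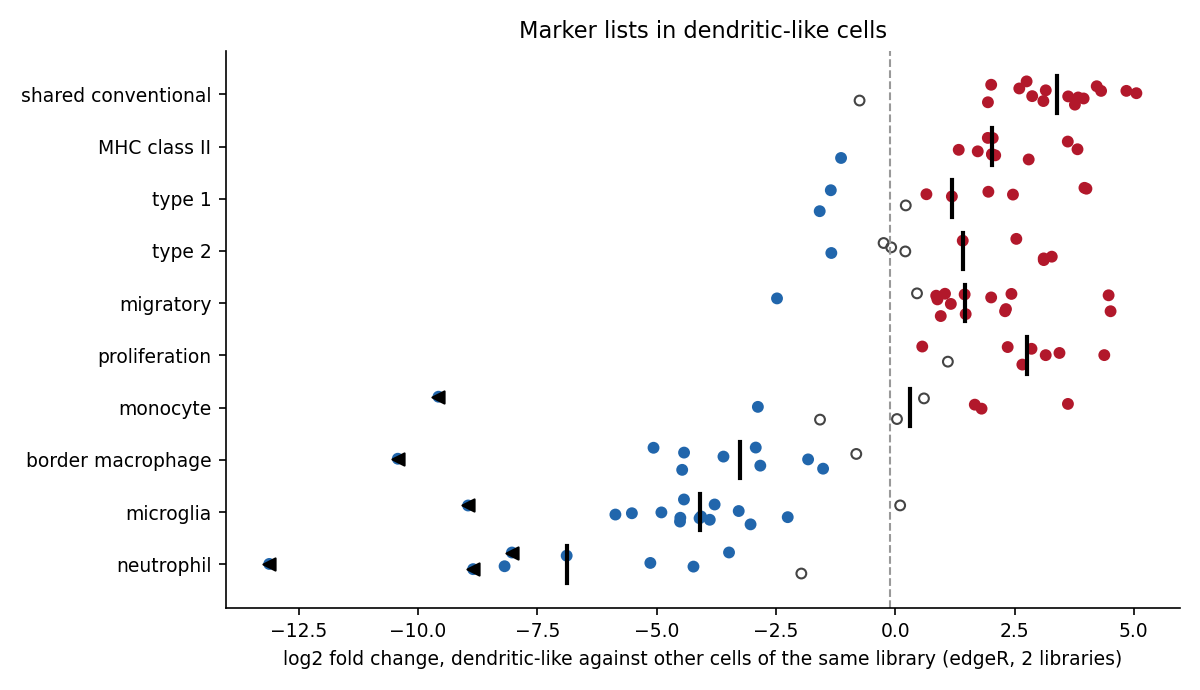
Log2 fold change (x axis, edgeR, 2 libraries) of each tested gene of 10 marker lists (y axis), members against other cells of the same library. Filled points are called (red higher, blue lower), open points are not called, black bars are list medians, the dashed line is the median of all genes (-0.12), and black triangles mark genes with 0 UMIs in the members, whose place on the axis depends on the prior count. The shared conventional and class II lists lie mostly to the right, with medians of 3.39 and 2.03, and the microglia list lies mostly to the left, with a median of -4.10.

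Markers of type 2 cells were led by lectins and Irf4. Of 12 genes, 9 were tested, and 5 of them were higher, 1 lower and 3 not called, beside 18.1% of all genes higher and 18.9% lower. Mgl2, a galactose-binding lectin, stood at 1142 against 186 CPM in the female and 1412 against 197 CPM in the male (3.11 ± 0.22 SE). Its paralog Clec10a stood at 292 against 40.6 CPM and at 212 against 27.3 CPM (3.28 ± 0.23), and reads of such near copies may be split between them by the counting. Irf4, the type 2 factor, was at 37.1 against 6.02 CPM and 52.2 against 7.31 CPM (3.11 ± 0.31). The lymphotoxin chain Ltb (2.54) and the Notch effector Rbpj (1.41) were also higher.

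Other type 2 markers did not follow. Sirpa, a phagocytosis checkpoint receptor that microglia also carry, fell by 1.34 on the log2 scale. Itgam, which encodes the CD11b of the sorting gate, was at 137 against 193 CPM and at 140 against 190 CPM (-0.09), and Klf4 (-0.24) and Notch2 (0.21) were not called either. Clec4a4, Esam and Tbx21 were not tested, and Esam had 0 UMIs in the members of both libraries.

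Type 1 markers moved in both directions. Of 11 genes, 9 were tested, and 6 were higher, 2 lower and 1 not called, with a median of 1.19, beside 18.1% of all genes higher and 18.9% lower. Batf3, the type 1 factor, stood at 70.5 against 35.8 CPM in the female and at 54.0 against 35.1 CPM in the male (1.19 ± 0.23). Itgae (4.01), which encodes CD103, Ifi205 (3.96), the lipid hydrolase gene Naaa (2.47), Wdfy4 (1.95), a gene needed for cross-presentation, and Id2 (0.65) were higher, of which Id2 was not called with library totals alone (adjusted p = 0.19). Irf8 was the opposite case, at 98.3 against 323 CPM and at 105 against 355 CPM, and fell by 1.35 on the log2 scale, while the adhesion gene Cadm1 fell by 1.58. Tlr3 was not called (0.22), and Snx22 and Tlr11 were not tested. The Itgae value rests on few UMIs. Over all treated libraries 118 members with Cd209a but no Xcr1 or Clec9a held 8 Itgae UMIs, in 5 cells. The 7 with Xcr1 or Clec9a but no Cd209a held 3, the 18 with both kinds 1, and the 10 with none of these genes 0. With other cells matched in depth 4 of 8 genes were higher (median 0.67), in all 6 libraries with a member 3 of 7 (median 0.37), and with cells thinned to 1000 UMIs 2 of 8.

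Some type 1 markers stood much higher in a few cells, while others were spread over the members. Of the 153 cells, 118 held Cd209a without Xcr1 or Clec9a, 7 held Xcr1 or Clec9a without Cd209a, 18 held both kinds and 10 held none of the 3 genes. Irf8 was found in 6 of the 7 cells of the second kind, at 924 CPM over their summed UMIs, and in 22 of the 118 Cd209a cells, at 26.1 CPM. Id2 was at 1062 against 230 CPM, Ifi205 at 486 against 16.9 CPM, Cadm1 at 170 against 14.4 CPM and the endosomal receptor Tlr3 at 138 against 8.71 CPM. Smaller ratios were found for Naaa (462 against 130 CPM), Batf3 (113 against 56.4 CPM) and Wdfy4 (186 against 108 CPM), and of the 118 Cd209a cells 86 held Naaa, 77 Wdfy4, 73 Id2 and 62 Batf3. In the other direction Mgl2 was at 64.9 against 1524 CPM, while Clec10a and Irf4 had 0 UMIs in the 7 cells and stood at 263 and 40.0 CPM in the Cd209a cells. The 10 cells with none of the 3 genes held Irf8 at 434 CPM, Id2 at 691 CPM and Ifi205 at 153 CPM over their summed UMIs. These UMIs lay in 3, 7 and 2 of the 10 cells, so that high levels were found in some cells outside the 7. The 18 cells with both kinds were closer to the Cd209a cells in Irf8 at 31.1 CPM, Ifi205 at 7.77 CPM and Clec10a at 431 CPM, but their Batf3, at 113 CPM, was at the level of the 7 cells. The kinds were not tested against each other. The cells had been gated on CD11b, whose gene Itgam was found in 3 of the 7 cells, and the part of this gate in their number was not tested.

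**Figure D3:**
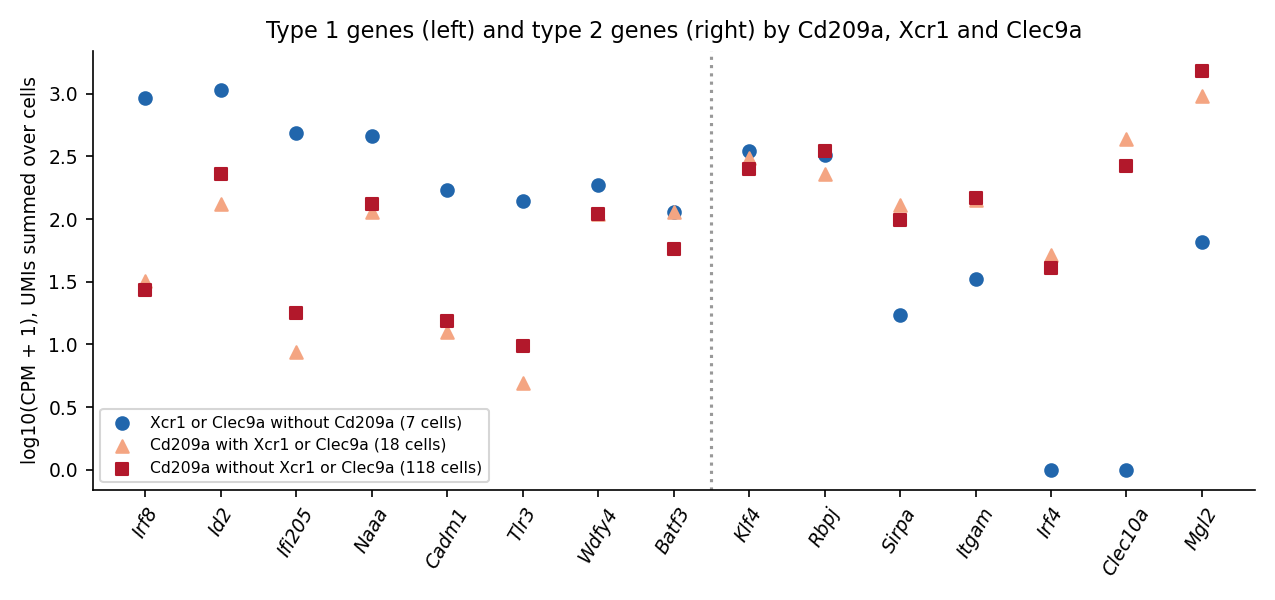
Levels of type 1 genes (left of the dotted line) and type 2 genes (right), as log10(CPM + 1) of summed UMIs (y axis), in cells with Xcr1 or Clec9a but no Cd209a (blue circles, 7 cells), with both kinds (orange triangles, 18 cells) and with Cd209a alone (red squares, 118 cells). The blue circles are highest for Id2 at 1062 CPM, followed by Irf8 at 924 CPM, and at 0 for Irf4 and Clec10a.

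Chemokines led the migratory list. Of 16 genes, 15 were tested, and 13 were higher, 1 lower and 1 not called, with a median of 1.45, beside 18.1% of all genes higher. With library totals alone only Ccl17, Ccl22, Cd200 and Tmem123 remained called higher, with other cells matched in depth 7 of 14 were called higher (12.4% of all genes), and DESeq2 called 3 of 16 higher. Ccl22, a ligand of Ccr4 on regulatory T cells, stood at 37.1 against 5.83 CPM in the female and at 417 against 11.5 CPM in the male (4.51 ± 0.27 SE). Ccl17, which lies near it on chromosome 8 and binds the same receptor, stood at 87.2 against 7.51 CPM and at 380 against 16.2 CPM (4.47 ± 0.25). Both chemokines were higher in the members of both mice, although 1 cell of the female held 28 of the 40 Ccl22 UMIs, and the 70 other members there stood at 11.2 CPM.

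Many of the other migratory calls rested on the male. Fscn1, the actin bundler of mature dendritic cells, was at 7.42 against 23.8 CPM in the female and at 68.4 against 18.1 CPM in the male, and was called higher (1.04), but was lower (-1.03) in a fit to all 6 libraries with a member. Socs2 (2.01), Nudt17 (2.32), Cacnb3 and Samsn1 (0.88) were likewise called higher while their CPM was lower in the members of the female. Cd200 (2.43), Ccl5 (1.48), Tmem123 (1.45), Il4i1 (1.16), Relb (0.95) and Birc2 (0.86) completed the higher genes. Anxa3 fell by 2.48 on the log2 scale, Il15ra was not called (0.46) and Apol7c was not tested.

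A few cells held most transcripts of some of these genes. The median cell carried 3 of the 16 genes in the female and 5 in the male, but 1 of 71 cells of the female carried 13, and 4 of 63 cells of the male carried 10 or more, up to 15. The next highest cells carried 7 and 9. The 4 male cells, with 3.85% of the members' UMIs there, held all of the 76 UMIs of Fscn1 and all of the 22 UMIs of Cacnb3, 93.1% of Socs2 and 56.7% of Ccl5, but 32.3% of Ccl22, 22.2% of Ccr7 and 4.98% of Ccl17. Ccr7 stood at 3250 CPM in them and at 456 CPM in the 59 other members of that library. Cd209a was at 23.4 against 1480 CPM, Mgl2 at 0 against 1468 CPM, and Irf8 at 1450 against 51.5 CPM. In the female the single cell held Ccr7 at 3216 CPM, Ccl22 at 3463 CPM and Fscn1 at 866 CPM, with 0 UMIs of Cd209a, Mgl2 and Clec10a. The 1 cell of naive microglia that met the rule carried 14 of the 16 genes.

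**Figure D4:**
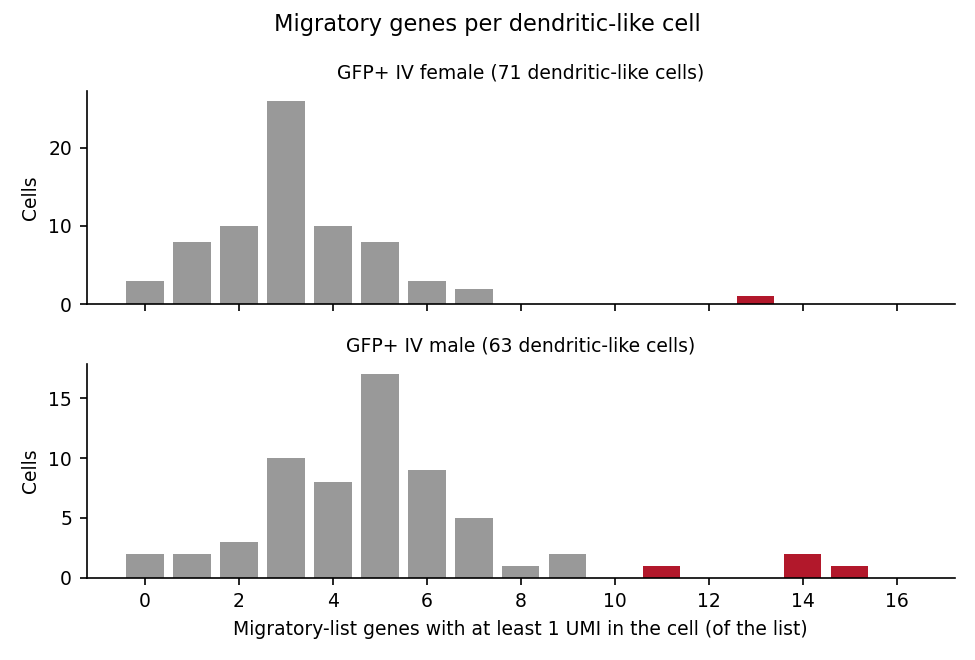
Number of dendritic-like cells (y axis) by how many of the 16 migratory genes had a UMI in the cell (x axis), for the i.v. GFP+ female (71 cells, top) and male (63 cells, bottom). Red bars are cells with 10 or more genes, 1 in the female and 4 in the male, set apart from the highest of the other cells at 7 and 9.

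Apart from these cells the mice differed in Ccr7 and its companions. Ccr7 was found in 42 of 63 members of the male (66.7%) and 4 of 71 of the female (5.63%), beside 1.85% and 0.560% of the other cells of at least 5000 UMIs. Leaving out the cells with 10 or more migratory genes, Ccr7 was found in 38 of 59 cells of the male and 3 of 70 of the female, Ccl22 in 31 and 9, and the secreted ligand Wnt11 in 37 and 4. Over all members Cd86 was at 302 and 84.4 CPM and Cd80 at 172 and 23.2 CPM in the male and the female, where the other cells held Cd86 at 416 and 245 CPM, while Tnfsf9 had the opposite order, at 315 and 458 CPM. With 1 mouse each these values are a description.

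Costimulation otherwise gave mixed calls, with 4 genes higher, 1 lower and 4 not called of 9 tested, beside 37% of all genes called in either direction. Tnfsf9, the ligand of 4-1BB on T cells, stood at 458 against 51.1 CPM in the female and 315 against 101 CPM in the male (2.79 ± 0.22 SE). Cd80 (1.89), Cd40 (1.65) and the checkpoint ligand Cd274 (1.29) were higher. Cd86 fell by 0.58 on the log2 scale, from 245 to 84.4 CPM in the female and from 416 to 302 CPM in the male. It was not called with other cells matched in depth, in all 6 libraries or with DESeq2, and its difference in the male alone was 0.034.

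Of 7 receptors for growth factors, 4 were higher, 2 lower and 1 not called, beside 37% of all genes called in either direction. Csf1r, on which microglia depend, stood at 115 against 1208 CPM in the female and 107 against 1159 CPM in the male, and fell by 3.03 on the log2 scale (± 0.23 SE). Csf2rb (1.31) and Csf2ra (0.99), the chains of the GM-CSF receptor, were higher, and with library totals alone only Csf2ra was called. Csf2rb stood at 54.7 against 51.8 CPM in the female and at 221 against 71.9 CPM in the male, so that its call rested on the male. Among chemokine receptors Ccr2, which draws marrow-derived cells into tissue, was at 384 against 141 CPM and 224 against 103 CPM (1.67 ± 0.21), Ccr1 was higher (1.26), and Cx3cr1 (-3.28) and Cxcr4 (-1.62) fell. Cx3cr1, whose protein is part of the sorting gate, stood at 133 against 1451 CPM and at 70.2 against 1038 CPM.

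Of 10 transcription factors 3 were higher, 4 lower and 3 not called, beside 18.1% of all genes higher and 18.9% lower. Maf, a factor of macrophages, stood at 10.2 against 552 CPM in the female and 27.0 against 614 CPM in the male, and fell by 4.62 on the log2 scale (± 0.27 SE). Zeb2 fell by 0.90 on the same scale. Runx3 (1.46), Nfil3 (0.80) and the myeloid factor Spi1 (0.56) were higher, of which only Runx3 was called with library totals alone.

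Microglial genes were lower almost throughout. Of 15 genes 14 were lower and 0 higher, with a median of -4.10, beside 18.9% of all genes called lower. Tmem119 stood at 5.56 against 261 CPM in the female and 7.20 against 238 CPM in the male, and fell by 4.90 on the log2 scale. P2ry12 (-4.51), the lipid receptor Trem2 (-4.43) and Olfml3 (-5.52) fell as well. Cst3, a protease inhibitor that dendritic cells also express at high levels, was not called, at 11056 against 15704 CPM and 12659 against 13139 CPM. Because of Cst3 the summed list still reached 12047 and 13287 CPM in the members, against 26272 and 22111 CPM in the other cells.

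Markers of other cell types were checked in the members as a whole. The border macrophage list, which marks the macrophages of brain borders, had 9 of 10 genes lower and 0 higher, beside 18.9% of all genes lower. Its sum was 154 and 265 CPM in the members against 2391 and 2384 CPM in the other cells. With library totals alone 7 of these 10 genes were called lower, beside 2467 of all 10748 genes. With DESeq2 5 were called lower, beside 685 of 17984 genes. Mrc1 (-1.83), Pf4 (-3.60) and Ms4a7 (-4.47) fell, and Cd209f had 0 UMIs in the members of both libraries and was at least 19.5-fold lower. Of 9 neutrophil genes 8 were lower, beside 18.9% of all genes. The list summed to 6.49 and 178 CPM in the members against 1785 and 3701 CPM in the other cells. Without the cells that held at least 3 markers of another cell type, 3 neutrophil genes were tested, of which 1 was lower and 2 were not called, with a median of -1.63 in place of -6.89.

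Monocyte markers were divided. At least 3 of the 10 genes were held by 62.0% and 58.7% of the members and by 7.29% and 7.40% of the other cells of at least 5000 UMIs, or 13.5% and 11.7% of the depth-matched other cells. S100a4, a calcium-binding protein of motile cells, stood at 930 against 104 CPM and at 901 against 91.0 CPM (3.62 ± 0.22 SE), and Ms4a4c was higher (1.81). Ly6c2, the antigen of classical monocytes, fell by 2.88 on the log2 scale, from 23.8 to 4.64 CPM in the female and from 19.1 to 0 CPM in the male, and Chil3 had 0 UMIs in the members and was at least 10.9-fold lower. Of 8 genes tested, 3 were higher, 2 lower and 3 not called (median 0.32), beside 37% of all genes called in either direction. With other cells matched in depth 3 were higher and 4 lower (median -0.061), beside 25.2%. In all 6 libraries with a member, 3 of 4 tested were higher and 0 lower (median 2.56). With cells thinned to 1000 UMIs, 2 of 4 tested were higher and 0 lower (median 1.52).

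Plasmacytoid markers were mostly low. Of 8 genes tested, 1 was higher and 5 lower, with a median of -1.35, beside 18.9% of all genes lower. Siglech, which microglia share with plasmacytoid cells, stood at 17.6 against 359 CPM and at 10.8 against 268 CPM (-4.10), and Tcf4 fell by 0.95 on the log2 scale. Spib was the higher one, at 8.34 against 0.518 CPM in the female and at 2.70 CPM against 0 in the male. With other cells matched in depth, and in all 6 libraries with a member, 0 genes of this list were called higher.

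Genes of the cell cycle were higher. Of 8 proliferation genes tested, 7 were higher and 0 lower, with a median of 2.76, beside 18.1% of all genes higher. Mki67, an antigen of dividing cells, stood at 91.8 against 10.7 CPM in the female and 68.4 against 12.8 CPM in the male (3.15 ± 0.24 SE). Birc5 (3.44), Pclaf (4.38), Stmn1 (2.85) and the topoisomerase Top2a (2.66) were among them. At least 3 of the 9 genes were held by 7 of 71 members of the female and 12 of 63 of the male. These shares of 9.86% and 19.0% compare with 4.51% and 3.17% of the depth-matched other cells. With other cells matched in depth 5 of the 8 were higher (median 1.55), beside 12.4% of all genes. The list summed to 1054 CPM in the members against 487 CPM in the matched cells of the female, and to 541 against 410 CPM in the male.

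By size, the 10 leading increases with at least 50 CPM were Wnt11 (5.12), P2ry10, the lectin-like receptor gene Klrd1 (4.58), Ccl22, Rhof (4.48), Tbc1d4 (4.47), Ccl17, Pclaf, Kmo and Lmo1 (4.17). Klrd1, best known from natural killer cells, stood at 501 against 24.9 CPM in the female and 234 against 14.0 CPM in the male. The 10 leading decreases were held by neutrophil granule genes and genes of macrophages. Camp, an antimicrobial peptide of neutrophils, had 0 UMIs in the members and was at least 113-fold lower. Among the other cells it was found in 6 of 3273 in the female and 9 of 2203 in the male, and DESeq2 did not call it (adjusted p = 0.097). Ngp (-8.19), Lcn2 (-7.18), Retnlg (-6.89), Ccl8 (-6.53), B430010I23Rik (-6.51), the phagocytic receptor Mertk (-6.12), Tmem37 (-6.01) and P2ry13 (-5.86) were among the others. Ngp had 0 UMIs in the members of the female and 1 in those of the male, and Retnlg had 1 in each. Among the other cells Ngp was found in 11 of 3273 and 8 of 2203, and Retnlg in 20 and 27. The exact folds and ranks of these genes thus rest on very few UMIs in the members and on few other cells.

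The few members of other libraries were near those of the i.v. GFP+ cells in several genes outside the rule. Mgl2 ran from 1142 to 2089 CPM and H2-Eb1 from 10535 to 18349 CPM over the 6 libraries with a member. Napsa stood at 787 and 680 CPM in the i.v. GFP+ female and male, at 982 and 1243 CPM in their GFP- libraries, and at 1377 and 977 CPM in the i.c.v. GFP- libraries. Cd209a, a gene of the rule, ran from 1247 to 1981 CPM. In naive blood Cd209a was at 1670 CPM, Mgl2 at 573 CPM and H2-Eb1 at 9664 CPM. Csf1r was at 120, 0, 275 and 78.1 CPM in the 4 GFP- libraries, which hold 9, 2, 3 and 5 members. No test between sorts was run, since no GFP- library reached the minimum of 10 members, and a fit to all 6 libraries, chosen after seeing the data, called 12 of 13 shared conventional genes and 10 of 11 class II genes higher, beside 13.2% of all genes higher and 36.6% called in either direction.

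**Figure D5:**
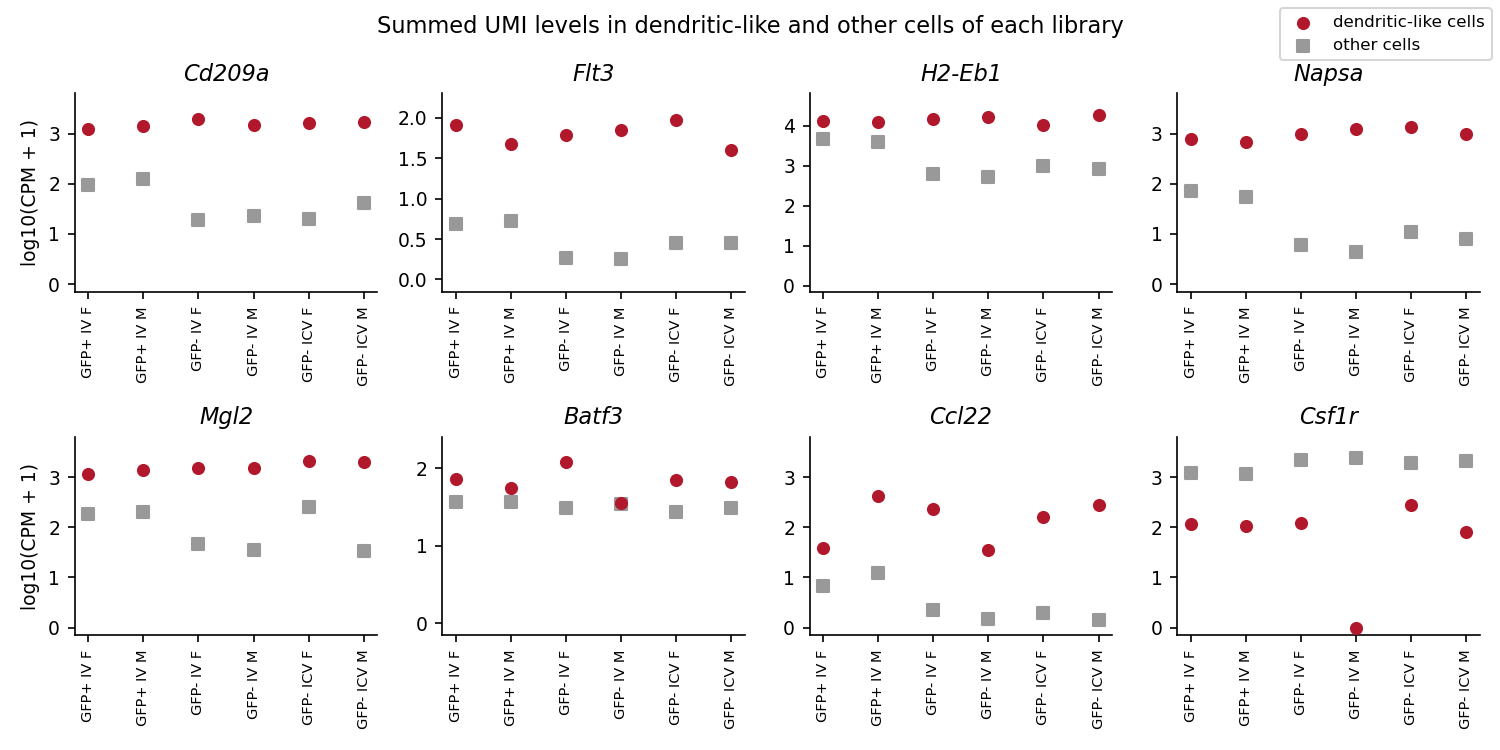
Levels, as log10(CPM + 1) of summed UMIs (y axis), of 8 genes in dendritic-like cells (red circles) and other cells (grey squares) of the 6 treated libraries that held a member (x axis, F female and M male), with 2 to 71 members behind each circle. H2-Eb1, Napsa, Mgl2 and Ccl22 are higher in the members of all 6 libraries, as are Cd209a and Flt3, which belong to the rule, and Csf1r is lower in all 6, while Batf3 nearly coincides in the i.v. GFP- male.

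The members also lay near one another. Among the 20 nearest neighbors of each member in a space built without the 7 rule genes, 45.8% in the female and 66.2% in the male were members, against 7.03% and 6.56% around the depth-matched other cells, whose median depth was lower than that of the members, and 2.12% and 2.78% of all cells. The mean difference was 49.2 percentage points (SD 14.7, n = 2 libraries), with an exact sign-flip permutation p of 0.5, the smallest that 2 libraries allow. At least 1 such neighbor was found for 70 of 71 members and 60 of 63 members.

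Sex-linked and vector transcripts were counted in the members. In the i.v. GFP+ female, a recipient of male cells, 61 of 71 members held a Y-linked UMI and 1 held Xist. In the GFP- library of the same mouse 7 of 9 members held a Y-linked UMI and 2 held Xist, while among its other cells of at least 5000 UMIs 6.57% held Y-linked UMIs and 85.4% held Xist. In the i.c.v. GFP- female all 3 members held Xist and 0 held a Y-linked UMI, and in the i.c.v. GFP- male 3 of 5 held Xist and 3 held a Y-linked UMI. EGFP was found in 10 of 71 and 12 of 63 members of the i.v. GFP+ libraries (14.1% and 19.0%), beside 18.4% and 16.0% of other cells of at least 5000 UMIs, and in 0 of 19 GFP- members. The paper describes the donors of this experiment as male, without naming those of the later marrow separately. How these transcripts relate to the later marrow graft was not tested.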

How the data were processed

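The authors counted UMIs per gene and barcode with Cell Ranger (3.1.0 per the file headers, mm10), and the deposited values are whole counts without normalization. Barcodes under 200 genes or above 10% mitochondrial UMIs were dropped. The members and gene lists were chosen with earlier results of these data known. No doublet caller was run. Of the 153 members 132 held at least 3 microglia markers, 92 monocyte, 8 border macrophage, 1 neutrophil, 1 T or NK and 0 B, oligodendrocyte or astrocyte markers, and doublets with microglia were not tested for. In the i.v. GFP+ female and male the microglia share was 87.3% and 81.0% of members. It was 98.6% and 98.8% of other cells of at least 5000 UMIs there. Pairs of treated libraries shared 0 to 8 barcodes, none of a member.

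UMIs were summed per library over members and over other cells and compared in edgeR 4.0.16 (R 4.3.3; filterByExpr, TMM, quasi-likelihood F test, library as block, Benjamini-Hochberg). Rule genes were left out of the test. The p-values rest on 2 mice, with 1 residual degree of freedom per gene and a spread shared over genes. They do not measure the spread between the mice for each gene, and Fscn1 was called although the mice went opposite ways. On simulated data for this comparison 79.5% of 200 genes changed 4-fold were recovered among 10489, with 2 false calls of 161. The simulation took its spread from the same fit and changed few genes, where 37% were called in the data. Its false calls therefore do not cover a change of that breadth or the choice of scaling. A gene with 0 UMIs was set at 3 counts over both libraries for a bound. All genes of the main lists were named, 2 to 4 examples of the others, and the 10 largest changes each way that were called, reached 50 CPM and kept 1 direction. A few genes these rules name are not reported here. Further examples were chosen after their values were seen. Intervals and floors (3 counts) cover counting error only. Neighbors came from scanpy 1.11.5 (2000 variable genes, 30 components). Promoters came from RefSeq (GRCm38.p6) and gene positions from GENCODE (GRCm38). Alternatives covered scaling, tool, filters, block, depth, rule and libraries.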

Additional observations from a re-analysis of the deposited data

Results flagged for a closer look

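The share of dendritic-like cells differed between the sorts of 1 mouse in opposite directions by route, of which the i.c.v. direction rests on few cells and was not tested within a mouse. The GFP+ library minus the GFP- library gave 1.79 percentage points in the i.v. female and 2.74 in the i.v. male, and -0.0689 and -0.122 in the i.c.v. female and male. The i.c.v. values rest on 0 against 3 and 0 against 5 cells, and the exact 95% intervals of the sorts overlapped in both mice (GFP+ 0 to 0.141% against GFP- 0.0142 to 0.201% in the female, 0 to 0.104% against 0.0397 to 0.285% in the male). An exact permutation of the 4 mice over the routes gave p = 0.333, the smallest this design allows, so the dependence on route could not pass a test.

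The treatment-naive blood library, which entered no comparison, held 7 dendritic-like cells among 341 (2.05%), which is given as a value with no test.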

How the results depend on the processing

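The list calls for class II genes (10 higher, 1 lower) and microglia (0 higher, 14 lower) were the same with other cells matched in depth, in all 6 libraries and with library totals alone. DESeq2 called 13 of 15 microglia genes lower, and with cells thinned to 1000 UMIs 12 of 13 tested were lower. Genes higher and lower numbered 1945 and 2027 as reported. They numbered 1169 and 1199 with other cells matched in depth, 1028 and 1001 for cells with at least 4 rule genes, 1109 and 1011 for the rule without Itgax, 415 and 522 after thinning each cell to 1000 UMIs, and 1036 and 685 in DESeq2. Higher genes also moved to 1275 in all 6 libraries and to 961 with library totals alone. Without the replicate block the counts were 1086 and 1061. Of the 3972 calls, 2252 of 3693 retested kept their direction and call at matched depth.

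Over 15 settings the 119 named genes tested gave 1576 values like those reported, 130 that lost and 5 that gained the call, and 29 of the opposite sign, and the cause was not tested. With at least 4 rule genes these were Cacnb3 (-7.51), Fscn1 (-0.35), Il15ra (-2.62), Nudt17 (-0.27) and Socs2 (-2.18). In all 6 libraries they were Fscn1 (-1.03), Tlr3 (-0.43) and Cst3 (-0.34), per mouse Fscn1 (-0.79), Tlr3 (-0.57) and Cst3 (-0.18), and with library totals alone Tlr3 (-0.15), Notch2 (-0.17) and Cst3 (-0.28). In DESeq2 it was Il15ra (-0.015), and for Cst3 -0.049 at matched depth and -0.21 after thinning. Leaving out 1 library left a single library with no test, and the fold changes then ran from -0.94 to 3.52 for Cacnb3, -1.25 to 0.034 for Cd86, -0.22 to 0.44 for Cst3, -1.37 to 2.38 for Fscn1, -2.46 to 1.67 for Il15ra, -0.21 to 0.052 for Itgam, -0.77 to 0.30 for Klf4, -0.049 to 0.47 for Notch2, -0.87 to 3.62 for Nudt17, -0.13 to 1.70 for Samsn1, -1.31 to 3.15 for Socs2 and -0.65 to 0.68 for Tlr3.

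The shares moved with the rule and with depth. The difference by sort was 1.08 points as reported, 2.01 with at least 2 rule genes, 0.482 with at least 4, 0.608 for the rule without Itgax, and 0.0913 and 0.011 after thinning to 1000 and 500 UMIs. The GFP+ route difference of 2.45 points was 4.45, 1.08, 1.37, 0.183 and 0.022 under the same settings, and the GFP- route difference of 0.0946 points was 0.0512, 0.0189 and 0.0563 under the first 3 of them and 0.165 under the stricter cell filter (500 genes, 5% mitochondrial). All kept their sign. The difference in share by sort ran from 0.565 to 1.49 points without 1 library, the GFP+ route difference from 2.12 to 2.78 and the GFP- route difference from -0.0517 to 0.241. Paired within mice (replicate block), the sort difference of 1.08 gave p = 0.5 in an exact sign-flip permutation test whose smallest value is 0.125. Thinning to 5000 UMIs, chosen after seeing the data, left 43 GFP+ and 7 GFP- members and differences of 0.575, 2.38 and 0.510 points. Thinning to 500 or 1000 UMIs left no GFP- members, so the GFP- route had no value there. Neighbor differences ran from 37.3 to 49.4 points over settings and from 38.8 to 59.6 without 1 library. The planned tests between GFP+ and GFP- members, of the dependence on the sort, and between type 1 and Cd209a cells were not run, because only 2 libraries held 10 members.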

Other observations

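Of 9 genes of class I presentation 4 were higher and 0 lower in the dendritic-like cells, with a median log2 fold change of 0.50, beside 18.1% of all genes called higher and 37% called in either direction. With other cells matched in depth 3 were higher, and with cells thinned to 1000 UMIs 1. With library totals alone 3 were higher and 1 lower, with a median of 0.11. Tap1, a peptide transporter, stood at 117 against 59.8 CPM in the female and 87.3 against 53.5 CPM in the male (1.22), and the immunoproteasome genes Psmb8 (1.05) and Psmb9 (0.94) were higher, as was H2-D1 (0.56), whose adjusted p was 0.21 with library totals alone.

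Genes induced by tissue dissociation were mostly lower in the members. Of 10 genes 7 were lower and 1 higher, beside 18.9% of all genes lower and 18.1% higher. Jun stood at 1343 against 3966 CPM in the female and 435 against 3059 CPM in the male (-1.80), with Fos at -1.30 and Hspa1a at -1.50. Hspa1a was at 26.0 and 411 CPM in the members of the female and the male, and at 136 and 1241 CPM in their other cells, so that the libraries differed in this gene more than the cell groups did.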
